A study of Mus musculus with 4 samples.

Results

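The 200 spots described here were the spots with the largest share of their transcripts from 9 cartilage matrix genes, among 10574 spots of the injured mouse Achilles tendon. Every spot with at least 1000 unique molecular identifiers (UMIs, each counting 1 captured transcript) received a score, the summed UMIs of Acan, Col2a1, Col9a1, Hapln1, Matn3, Matn4, Col11a2, Cnmd and Snorc per 100 UMIs of the spot. The 200 highest scores over all 4 sections were kept, 1.89% of the spots. Because these 9 genes chose the spots, their values below are a description and carry no test. A spot is a small area of tissue that can hold several cells of different types, so its values are those of a region and not of a cell.

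The study took longitudinal cryosections of 10 µm from the tendon injury site 14 days after a punch of 0.5 mm, placed about 2 mm above the heel bone, in male and female mice of 12 weeks, and captured their RNA on Visium arrays. Sections WT 1 and WT 2 came from mice with wild-type TrkA, given as the control. Sections F592A 1 and F592A 2 came from mice whose TrkA carries the F592A change, treated with 1NMPP1, a compound that blocks kinases altered in this way. TrkA is a receptor tyrosine kinase of sensory nerves. Genotype and compound changed together and cannot be told apart, and whether 1NMPP1 was also given to WT mice is not stated in the labels. Per the labels, tissue was pooled from 4 mice per genotype, and no section is tied to a mouse, so each p-value measures the spread between sections, which may be partly technical.

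Cartilage matrix is built on a mesh of type II, IX and XI collagen that holds aggrecan, a large proteoglycan whose sulfated sugar chains bind water and resist compression. Link protein fixes aggrecan to hyaluronan, and matrilins and cartilage oligomeric matrix protein bridge the collagen fibrils. Tendons carry a fibrous form of cartilage where they press on bone, and an injured Achilles tendon can form cartilage within its scar. Sox9 is the transcription factor that drives most of these genes.

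The selected spots were spread unevenly. WT 1 held 30 of them (0.997% of its spots, exact Clopper-Pearson 95% interval 0.674 to 1.42%), WT 2 held 117 (5.85%, 4.86 to 6.97%), F592A 1 held 18 (0.638%, 0.379 to 1.01%) and F592A 2 held 35 (1.27%, 0.889 to 1.77%). These intervals cover counting error only. WT 2 alone gave 58.5% of the 200 spots, and the WT sections differed from each other by more than WT 1 differed from either F592A section. The groups overlapped: F592A 2 had a larger share than WT 1. In the map of the sections, the spots of WT 2 and F592A 2 lay mostly in compact groups, and those of F592A 1 were scattered.

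**Figure D1:**
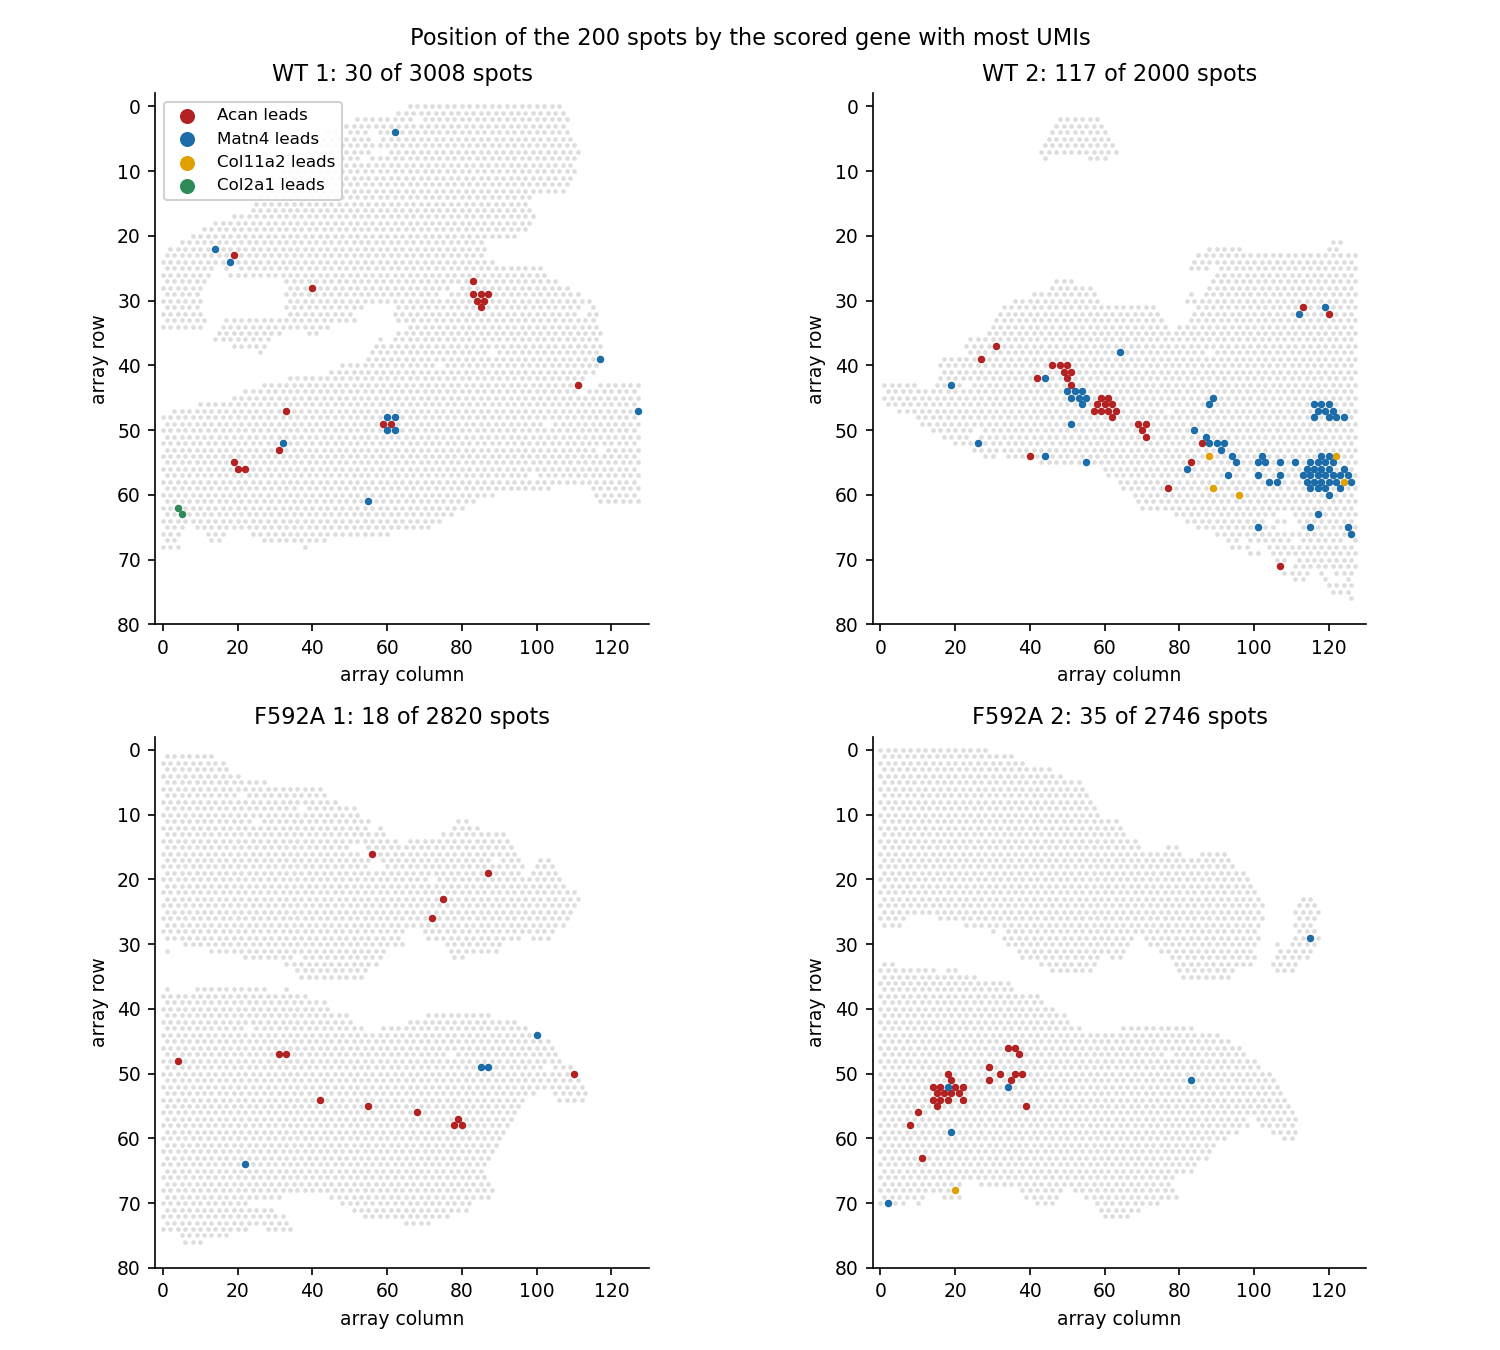
Each panel is 1 section and each dot 1 spot, at its array column (x) and array row (y). Grey dots are the other spots with at least 1000 UMIs, and coloured dots are the 200 selected spots by the scored gene with the most UMIs. WT 2 holds 117 of the 200, with 81 led by Matn4, while 28 of the 35 spots of F592A 2 are led by Acan.

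Scores ran from 0.156% to 1.04% with a median of 0.189%, against a median of 0.0200% in the other spots. The cut fell in a continuous range: the 5 lowest selected spots scored 0.156 to 0.157% and the first spot left out scored 0.155%. At the top, 1 spot of WT 1 stood alone at 1.04%, with 71 of its 78 scored UMIs from Col2a1, and the second highest score was 0.409%. Some scores rested on few transcripts, since 37 of the 200 spots held fewer than 10 UMIs of the 9 genes (5 in WT 1 and 16 in WT 2, with 10 in F592A 1 and 6 in F592A 2).

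The label of fibrocartilage was borne out only in part. The 2 genes that made up the score were the proteoglycan Acan (GRCm38 chromosome 7, 79053226 to 79115099), with 5106 UMIs or 37.6% of the scored UMIs, and Matn4, a matrilin (chromosome 2, 164389393 to 164405160), with 4844 UMIs or 35.7%. The collagens followed, Col11a2 with 1986 UMIs (14.6%) and Col2a1, the main collagen of hyaline cartilage, with 935 (6.88%). Matn3 gave 414 UMIs (3.05%), link protein Hapln1 222 (1.63%) and Col9a1 67 (0.493%). Cnmd, the cartilage form of the tenomodulin family, gave 5 UMIs in all 200 spots, and Snorc, a small proteoglycan of chondrocytes, gave 7. Ihh had no UMI among the 6655065 UMIs of these spots, which allows up to 0.451 counts per 1000000 UMIs (CPM). The other spots of a section had 0.113 to 0.344 CPM, below that bound, so this 0 does not set the selected spots apart. Matn1 was at 0 in the selected and in the other spots of every section, so its absence is not particular to them. Col10a1, the collagen of hypertrophic cartilage, had a count of 1, and was as scarce in the other spots (0.0965 to 0.451 CPM by section). Cnmd and Snorc were scarce in the other spots too (0.140 to 0.414 and 0.113 to 0.298 CPM by section), so their low counts are not particular to the selected spots. In the selected spots both were 0 in WT 1. Cnmd reached 5.12 CPM in F592A 1 (2 UMIs) and Snorc 4.62 in F592A 2 (6 UMIs). With most of the score from Acan and Matn4, and few UMIs of Cnmd and Snorc in any spots, the selected spots are called cartilage matrix-rich spots here.

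Acan was raised in every section. It stood at 773 CPM in the selected spots of WT 1, at 578 in those of WT 2, at 1119 in F592A 1 and at 1170 in F592A 2, computed on the summed UMIs of those spots. Both F592A sections were above both WT sections. The ratio to the other spots of the same section was 4.28, 2.48, 4.20 and 4.94 in the same order.

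Matn4 was highest in WT 2. Its level was 530 CPM in WT 1 and 977 in WT 2, with 548 in F592A 1 and 322 in F592A 2, so the groups overlapped. Col11a2, which encodes a chain of type XI collagen, had 269, 393, 141 and 120 CPM, with both WT sections above both F592A sections. Col2a1 had 131, 166, 61.4 and 106 CPM. Of the 188 Col2a1 UMIs of WT 1, 71 and 15 came from a pair of neighbouring spots. Its other spots had 53.5 CPM where Acan gave the most scored UMIs and 98.2 where Matn4 did. Both values are below the 106 of F592A 2, so the gap between groups in Col2a1 rests on that pair. Since the score fixed the sum of the 9 genes within narrow limits, a high share for 1 of them leaves less for the rest.

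**Figure D2:**
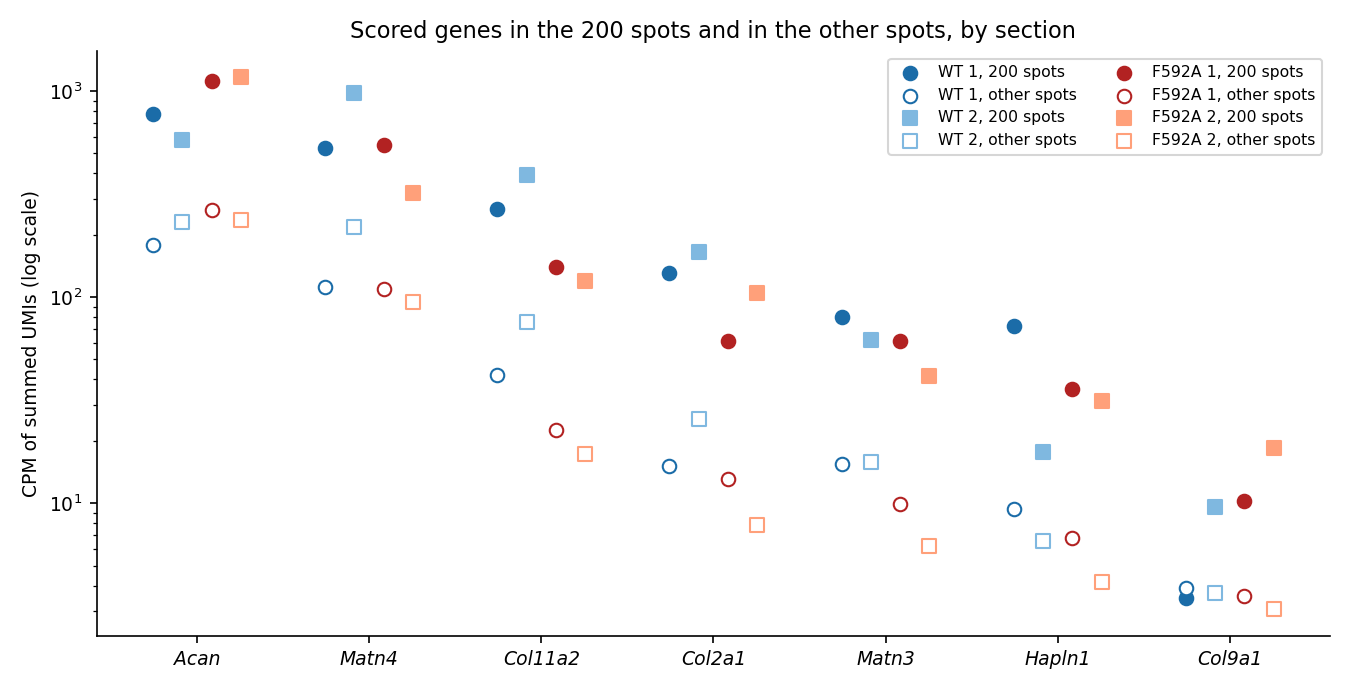
CPM of summed UMIs on a log axis (y) for 7 of the 9 scored genes (x), 1 point per section, filled for the selected spots and open for the other spots; Cnmd and Snorc, with 5 and 7 UMIs, are left out. Filled points sit above the open points of their section for every gene but Col9a1 in WT 1, and Acan and Matn4 are the highest of the 7.

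Spots led by Matn4 numbered 102, spots led by Acan 90, by Col11a2 6 and by Col2a1 2. Acan led in 17 spots of WT 1, 31 of WT 2, 14 of F592A 1 and 28 of F592A 2. Matn4 led in 11, 81, 4 and 6. Pooled over sections, the spots led by Acan had 330 CPM of Sox9 and 31.7 of Col9a3, and those led by Matn4 had 146 and 3.63. Chad and Cilp2, matrix proteins of cartilage and tendon, went the other way, at 74.3 and 176 CPM in the spots led by Acan and 291 and 458 in those led by Matn4. Section and leading gene were tied together here, but within WT 2 the order was the same. Sox9 was 313 CPM in its spots led by Acan and 163 in those led by Matn4, and Chad was 119 and 295. WT 1 and F592A 2 had this order in both genes. F592A 1, with 4 spots led by Matn4, had the reverse, at 395 and 432 for Sox9 and 2.69 and 0 for Chad.

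The 2 spots led by Col2a1 were neighbours at the edge of WT 1. Their Col2a1 level was 5238 CPM, and Ibsp, a protein of bone and mineralised cartilage, stood at 670 CPM against 1.22 in the spots of WT 1 led by Acan and 0 in those led by Matn4. The Ibsp level rests on few counts, since all selected spots of WT 1 held 12 UMIs of it. Outside the selection WT 1 held 699 UMIs of Ibsp, in 207 of 2978 spots (16.9 CPM). Chad was 1035 CPM in that pair. This pair was chosen after its values were seen.

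The cartilage matrix-rich spots clustered in the tissue: 146 of 200 touched another of the set, 21 of 30 in WT 1, 95 of 117 in WT 2, 7 of 18 in F592A 1 and 23 of 35 in F592A 2. They formed 81 patches, of which 54 were single spots, and 5 patches of 10 or more spots held 81 of the 200. The patch of 31 spots in WT 2 was rich in Matn4 (1508 CPM) and held Acan at 248 and Sox9 at 116 CPM. The patch of 16 spots in F592A 2 was the reverse, with Acan at 1186, Matn4 at 291 and Sox9 at 377 CPM.

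Patches of the same section also differed from each other. WT 2 held a patch of 14 spots with 461 CPM of Sox9, 53.9 of the type IX collagen chain Col9a3, 24.0 of Chad, 35.9 of Cilp2 and 53.9 of Kera (keratocan, a small proteoglycan). A patch of 10 spots in the same section had 31.6 CPM of Sox9, 0 of Col9a3, 622 of Chad, 549 of Cilp2 and 448 of Kera. For comparison, the 16-spot patch of F592A 2 had 57.6 CPM of Col9a3, 3.90 of Chad, 8.78 of Cilp2 and 12.7 of Kera. In Sox9 and Col9a3 the 14-spot patch of WT 2 was close to the patch of F592A 2, and in Chad, Cilp2 and Kera it lay between that patch and the rest of WT 2. Tnmd (tenomodulin, a marker of mature tendon cells) was 928 CPM in it, against 316 in the patch of F592A 2 and 1685 to 2836 in the other 4 patches of 6 or more spots in WT 2. Patches have no replicate of their own, so these values are untested.

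**Figure D3:**
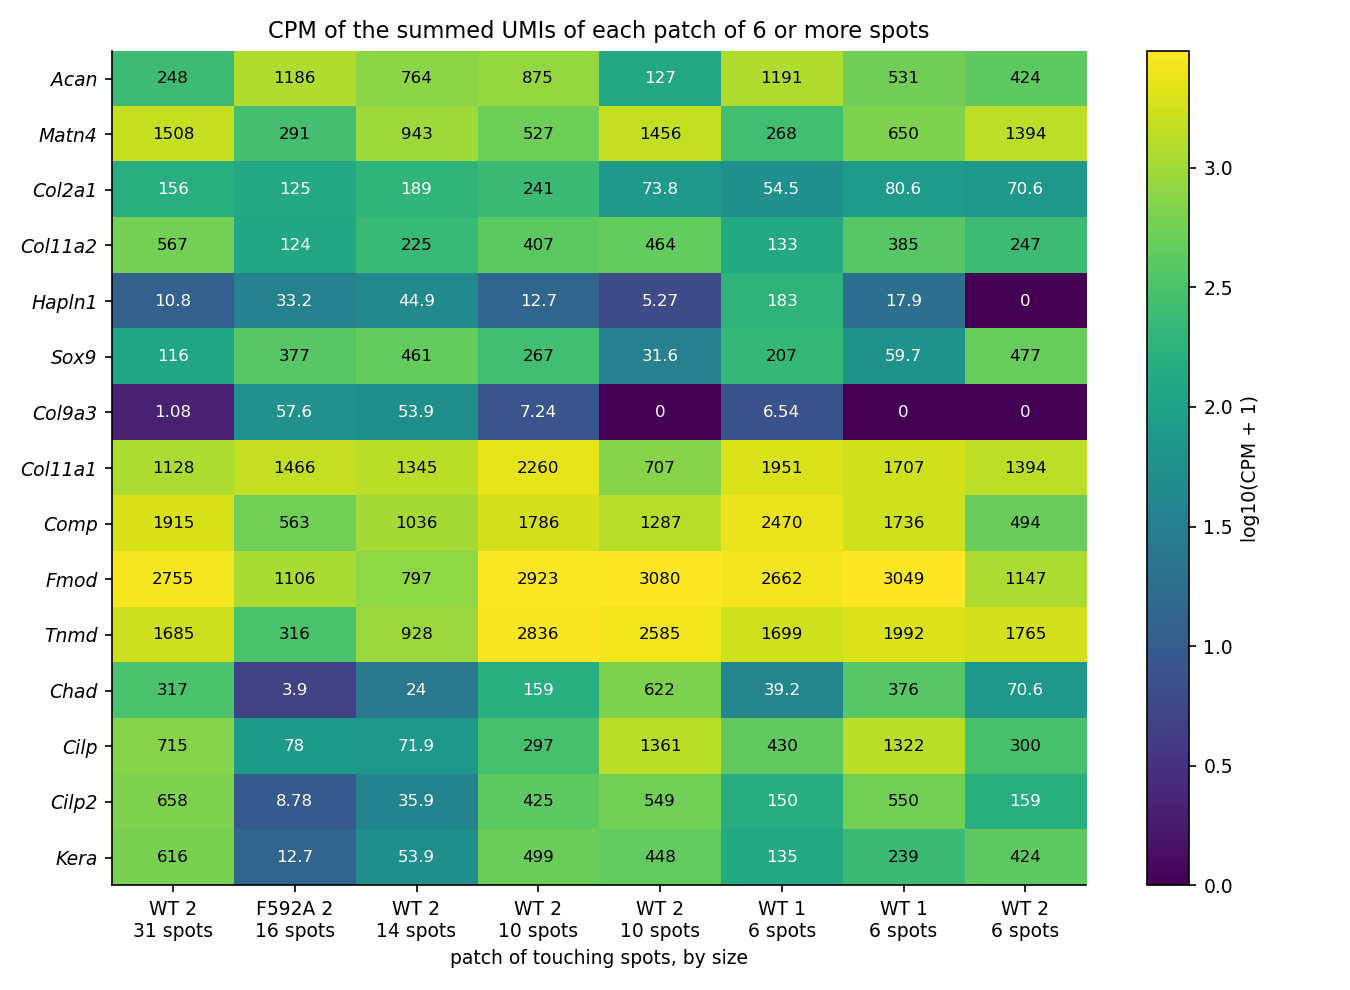
Columns are the 8 patches of 6 or more touching selected spots, with section and size below, rows are genes, and each cell gives the CPM of the patch's summed UMIs, coloured by log10(CPM + 1). The third column, a patch of WT 2, has Col9a3 at 53.9 and Chad at 24.0, nearer to the F592A 2 patch in the second column (57.6 and 3.90) than the first column is (1.08 and 317).

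Levels were lower with distance, over a few spots, in profiles that carry no test. In steps from the nearest selected spot, the Acan level of WT 1 went from 773 CPM at step 0 to 404, 257 and 222 at steps 1 to 3 and 153 farther out. F592A 2 went from 1170 to 717, 513, 331 and 164 CPM. Acan, Matn4 and Col2a1 were lower at each further step in every section. Since the spots were picked for high values, the gap between step 0 and step 1 is partly set by that choice. Sox9, which the choice did not use, was also lower step by step in both F592A sections, from 397 to 177 CPM in F592A 1 and from 443 to 152 in F592A 2, and in WT 2 from 233 to 91.1. In WT 1 it stayed between 118 and 135 CPM over steps 0 to 3 and was 88.3 farther out. Tnmd had other profiles in the 2 groups. It went from 1814 CPM at the spots to 1101 beyond step 3 in WT 1, and from 1936 to 919 in WT 2. In F592A 1 it was 274 CPM at the spots and 738 farther out, and in F592A 2 it was 327 at the spots, 475 at step 3 and 333 beyond.

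**Figure D4:**
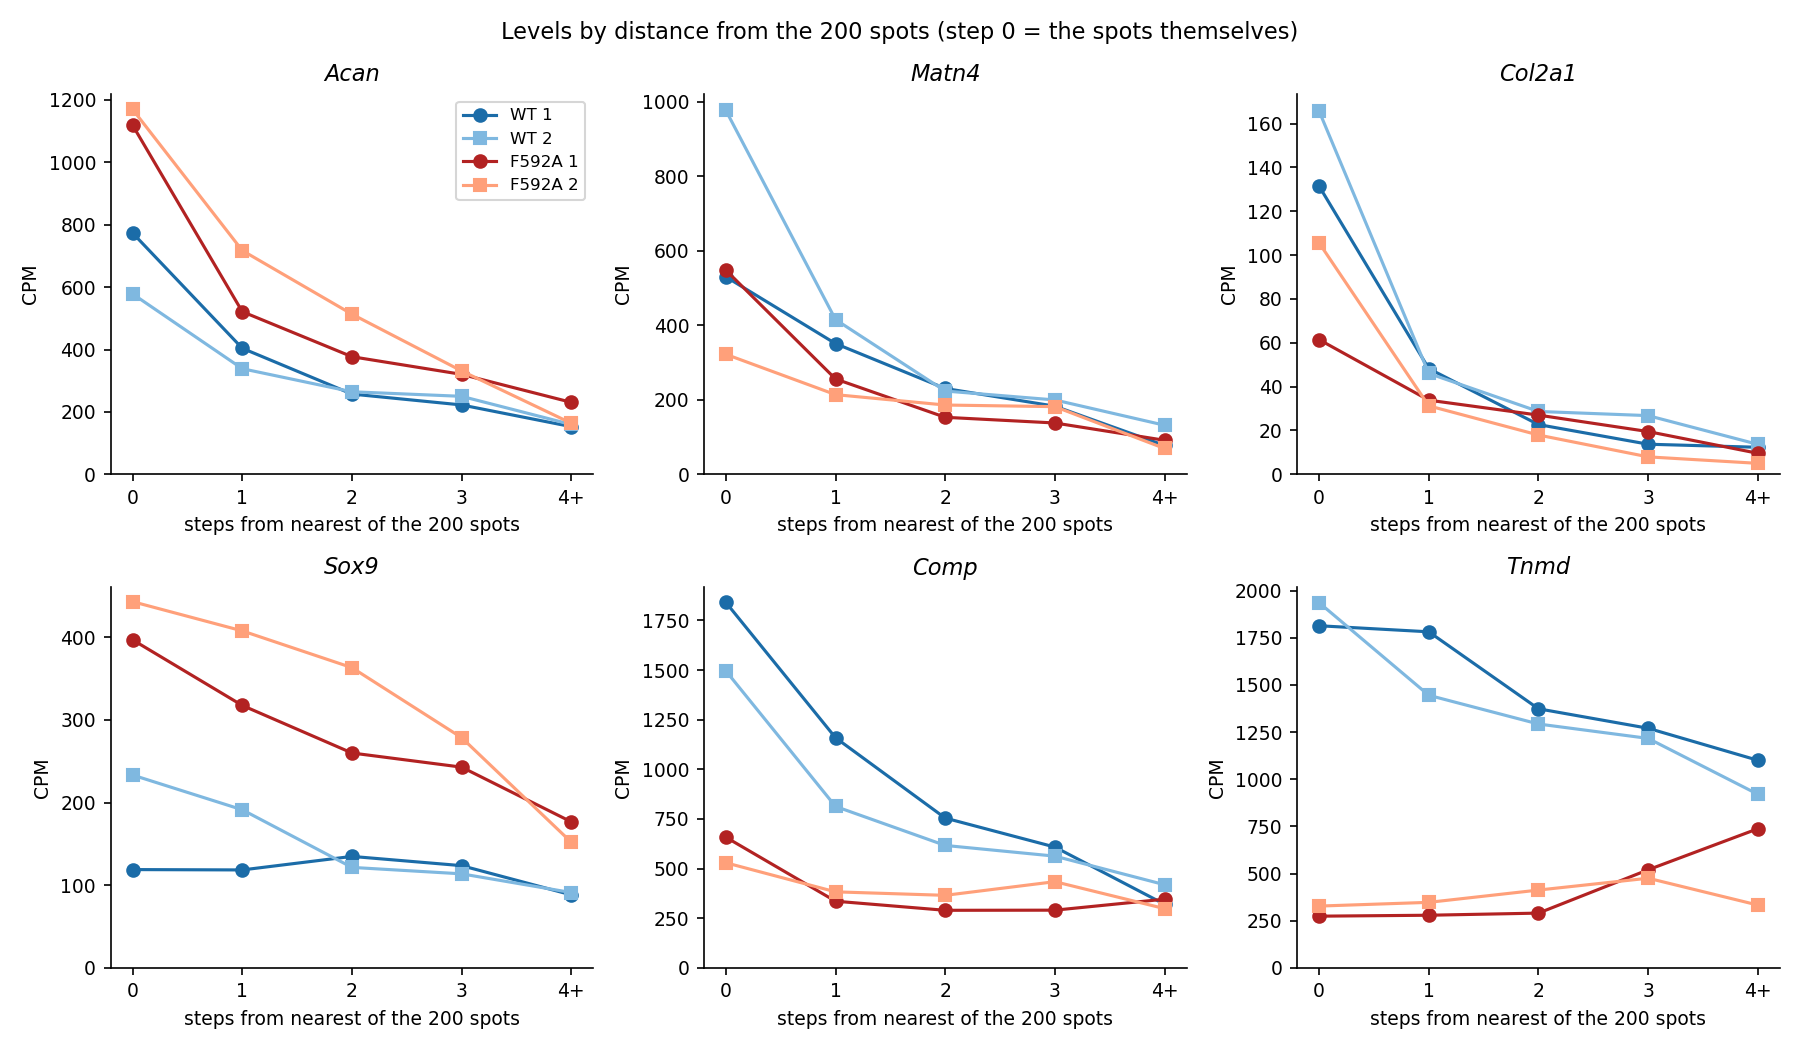
CPM (y) of 6 genes by the number of grid steps from the nearest selected spot (x), 1 line per section; step 0 is the selected spots and 4+ everything farther out. Acan, Matn4, Col2a1 and, in 3 of 4 sections, Sox9 are lower farther out, while Tnmd is highest at the spots or next to them in the WT sections and starts at 274 and 327 CPM in the F592A sections.

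The sections held 30154873 to 43957617 UMIs, and 5 to 39 spots per section fell short of 1000 UMIs, out of 10662 spots under tissue in all. Visium barcodes are fixed grid positions, and 3327 of 4386 barcodes occurred in 2 or more sections. Depth differed: the median UMIs of the selected spots were 31324 and 15758 in the WT sections and 5110 and 31027 in the F592A sections, against 5998, 7763, 5487 and 6495 in the other spots. Of the 390570 UMIs summed over the selected spots of F592A 1, 52.7% came from 1 spot. An amino acid change does not show in counts, so the genotype labels could not be checked. Xist, expressed from the inactive X chromosome, was 128 CPM in the selected spots of WT 2 and 0 to 0.771 in those of the other sections. Ddx3y, a gene of the Y chromosome, was 0 CPM in WT 2 and 70.6 to 88.6 in the others. The WT sections therefore differed in sex-linked RNA and were not repeats of the same tissue, and the part of sex in the results was not tested.

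Setting the selected spots against all other spots of the same section showed which genes outside the score went with it. The summed UMIs of each section were compared with edgeR's quasi-likelihood test with the section as a block, and 3019 of 14587 genes (20.7%) had a Benjamini-Hochberg adjusted p under 0.05. Higher were 1221 genes (8.37% of those tested) and lower 1798 (12.3%), and 38.1% of all genes tested moved the same way in every section. Where the mean log2 CPM reached 5 and all 4 sections went the same way, the genes that rose most were Aqp5, Wwp2, Slpi, Cgref1, Rflnb and Moxd1, the matrix genes Col8a2, Col11a1, Spp1, Comp and Fmod, and the cell surface proteoglycan Gpc1. Among those that fell most by the same rule were genes of muscle (Trdn, Ttn, Tnnt3, Myh4, Actc1, Car3 and Mybpc2), of epidermis (Lce1m, Krt77 and Col17a1) and of myelin (Mbp). Values in these comparisons are CPM after TMM scaling and differ slightly from the plain CPM above.

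Aqp5, a water channel, stood at 92.2, 79.7, 135 and 144 CPM in the selected spots of WT 1, WT 2, F592A 1 and F592A 2, against 23.8, 28.7, 30.1 and 19.7 in the other spots. All 4 sections rose without overlap, by a log2 fold change of 2.10 ± 0.17 (SE, adjusted p = 8.82e-09). Wwp2, a ubiquitin ligase gene that Sox9 activates in cartilage, had 182, 226, 362 and 750 CPM against 57.1, 79.6, 104 and 112 (log2 fold change 1.94 ± 0.16, adjusted p = 1.88e-08). Col11a1, the partner chain of the scored Col11a2, had 1912, 1775, 1500 and 1484 CPM against 554, 666, 477 and 358 (1.73 ± 0.14, adjusted p = 1.03e-08), with no overlap between selected and other spots.

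Sox9 itself rose by less. It had 125, 258, 374 and 462 CPM in the selected spots against 92.1, 120, 193 and 182 in the other spots (log2 fold change 0.98 ± 0.13, adjusted p = 1.80e-05), higher in 4 of 4 sections and least so in WT 1. Of the list of chondrocyte transcription factors, 4 of 10 tested rose (Sox9, Runx3, Trps1 and Nfatc1) and Mef2c fell. The partners Sox5 and Sox6, which act with Sox9 in chondrocytes, did not pass (log2 fold changes of 0.16 and -0.74, adjusted p = 0.798 and 0.0740).

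Of 18 tested genes in the list of further cartilage matrix genes, 8 rose and 3 fell (Cytl1, Vit and Cilp). Cilp fell in the F592A sections alone, with log2 differences of 0.15 and 0.07 in WT and -2.40 and -1.68 in F592A. The list's median log2 fold change was 0.43, against -0.02 over all genes tested. Col9a3, a type IX collagen chain, had 3.69, 11.9, 60.3 and 57.9 CPM against 2.03, 2.83, 5.80 and 3.22 (2.93 ± 0.36, adjusted p = 3.62e-06). Its rise was small in WT 1 and large in the F592A sections. Col9a3 counts in the selected spots were low, at 5, 38, 25 and 72 UMIs, and the 25 of F592A 1 lay in 3 of its 18 spots. Col9a2 rose by 1.99 ± 0.42 (adjusted p = 0.00167) and Ucma, a secreted protein of cartilage, by 2.09 ± 0.24 (adjusted p = 1.88e-06). Col9a2 counts were low as well, at 5, 36, 6 and 21 UMIs in the selected spots. In WT 1 it did not rise (3.50 against 3.84 plain CPM). Comp, the bridging protein named above, had 1943, 1653, 620 and 552 CPM against 405, 559, 330 and 300.

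Chad and Cilp2 were called higher with sections that went opposite ways. Chad had 224 and 232 CPM in the selected spots of the WT sections against 43.0 and 64.0 in the other spots, and 2.41 and 6.43 in F592A against 19.8 and 18.9. Cilp2 had 359, 434, 12.1 and 8.85 CPM against 44.9, 97.1, 32.7 and 19.1. In both genes the selected spots were higher in the WT sections and lower in the F592A sections, so their pooled fold changes describe neither group. Prg4, the lubricin of joint and tendon surfaces, did not pass (0.32 ± 0.26, adjusted p = 0.452), and its sections also went opposite ways. It was higher in the selected spots of the WT sections (514 and 430 plain CPM against 199 and 256). In those of the F592A sections it was lower (302 and 164 against 339 and 403).

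The machinery that makes proteoglycans and collagen was raised as well. Of 25 tested genes for glycosaminoglycan synthesis, 15 rose and 1 (Ugp2) fell, with a median log2 fold change of 0.57. Chondroitin synthase Chsy3 had 102, 80.9, 60.3 and 61.9 CPM against 34.1, 35.1, 29.6 and 24.2 (1.32 ± 0.12, adjusted p = 1.04e-07). Of 20 genes for collagen crosslinking and hydroxylation, 14 rose and none fell, with a median of 0.54. P3h4 had 227, 278, 311 and 356 CPM against 112, 135, 153 and 132. Both counts stand against 8.37% higher among all genes tested.

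Turnover genes were mixed, with 5 of 20 higher and 6 lower. The collagenase Mmp13 had 522, 459, 499 and 183 CPM against 218, 205, 271 and 63.1 (1.21 ± 0.13, adjusted p = 4.37e-07), and the inhibitor Timp1 rose by 0.74 ± 0.14 (adjusted p = 0.000769). The aggrecanase Adamts4 rose (0.62 ± 0.21, adjusted p = 0.0362) and the aggrecanase Adamts5 fell by 0.84 ± 0.17 on the log2 scale (adjusted p = 0.00122).

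Signalling genes moved singly. Pth1r, the receptor for parathyroid hormone-related protein, had 171, 168, 60.3 and 138 CPM against 53.8, 60.9, 49.5 and 44.5 (1.39 ± 0.15, adjusted p = 8.44e-07), while its ligand Pthlh fell by 1.63 ± 0.33 (adjusted p = 0.00102). The hedgehog targets Gli1 and Ptch1 did not pass (adjusted p = 0.154 and 0.454). Among Wnt antagonists 2 of 10 rose, Frzb (1.52 ± 0.22, adjusted p = 3.81e-05) and Dkk3 (0.71 ± 0.13, adjusted p = 0.000672), and 4 fell, led by Sfrp4. In the list of BMP, GDF and TGF-beta genes 8 of 28 rose, among them Tgfb1 (0.82 ± 0.13, adjusted p = 9.06e-05), and 5 fell.

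Tendon genes were present in every section. Of 10 tenocyte genes 4 rose (Fmod, Scx, Mkx and Col1a1) and Egr2 fell. Mkx was nevertheless lower in the selected spots of F592A 2 (6.16 against 10.5 plain CPM). Thbs4 and Kera were higher in the selected spots of both WT sections and lower in those of both F592A sections. In F592A 1 and F592A 2, Thbs4 had 1792 and 1710 plain CPM against 2436 and 2545, and Kera 15.4 and 15.4 against 50.3 and 41.6. Scx, the transcription factor of tendon, had 254, 193, 135 and 159 CPM against 120, 118, 101 and 80.2 (0.83 ± 0.12, adjusted p = 4.90e-05), higher in 4 of 4 sections. Over a section's sum both Scx and Sox9 were higher, but patches of WT 2 differed. The 14-spot patch had 461 CPM of Sox9 with 114 of Scx, and a patch of 10 spots had 31.6 with 269. The other patch of 10 spots had both raised, at 267 and 207, against 121 and 119 in the other spots of WT 2. The patch of 31 spots had 116 with 134, and that of 6 spots 477 with 141. In the largest patch of F592A 2 both were raised too, at 377 and 163 against 192 and 85.0 in other spots. The 6-spot patches of WT 1 had 207 with 253 and 59.7 with 282, against 96.3 and 126 in other spots. Of the 200 spots, 36 were also among the 200 with the highest share of the tendon genes Scx, Mkx, Tnmd, Thbs4, Fmod and Kera. All of these lay in the WT sections.

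Lists of muscle, skin, vessels, macrophages and tendon sheath were lower: 11 of 11 fast muscle genes, 9 of 9 epidermal genes, 11 of 12 hair follicle genes, 8 of 8 endothelial genes, 6 of 10 macrophage genes and 6 of 11 tendon sheath and progenitor genes fell, and none of these lists had a gene that rose. Fast muscle genes took 0.300 to 0.439% of the UMIs in the selected spots and 1.79 to 2.32% in the other spots. A share of a spot's RNA falls when another share grows, and fewer cells of a type cannot be told apart from less RNA per cell. Of 10 wound fibroblast genes, in contrast, 5 rose (Spp1, Thbs2, Fn1, Tnc and Adam12) and none fell, with a median log2 fold change of 0.44. Of 11 osteoblast markers 5 were tested, and Col1a1 rose and none fell. Bglap2, Phex and Mepe were at 0 in the selected spots of all 4 sections, and Bglap2 and Mepe were each also at 0 in the other spots of 3 sections. The selected spots were also deeper than the rest in 3 of 4 sections, and keeping spots of at least 10000 UMIs in both sets left F592A 1 with too few spots. The other 3 sections then gave 1625 genes, against 2722 without F592A 1 at all depths, and both included all 24 genes that the rule of size picked as rising or falling most. Any further part of depth in the result was not tested.

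Since tendon genes were present in these spots, they were also set against tendon-rich spots, the 200 further spots with the highest share of the 6 tendon genes (61 in WT 1 and 103 in WT 2, with 23 in F592A 1 and 13 in F592A 2). Differences were fewer: 193 of 10436 genes (1.85%) passed in edgeR's test, 77 higher (0.738%) and 116 lower (1.11%), while 21.6% of all genes tested moved the same way in every section. Higher were Slpi, Mmp13, Spp1, Aqp5, Wwp2, Fabp5, Erg, Megf6, Vamp5, Sox9, Fgfrl1 and Cyp26b1. Lower were Chodl, Cilp, Rspo2, Spon2, Xirp2, Ifi27l2a, Csrp3, Islr, Sfrp4, Add3, Pi16 and Itih5.

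Sox9 had 123, 248, 383 and 449 CPM in the selected spots and 48.5, 60.8, 123 and 250 in the tendon-rich spots (log2 fold change 1.46 ± 0.18, adjusted p = 0.00194), higher in 4 of 4 sections. Wwp2 had 178, 217, 371 and 729 CPM against 81.6, 81.2, 79.5 and 167 (1.71 ± 0.18, adjusted p = 0.000728). Erg, a transcription factor of articular chondrocytes and of endothelium, had 69.3, 58.3, 59.3 and 96.1 CPM against 31.3, 23.4, 20.0 and 12.9, with no overlap (1.60 ± 0.22, adjusted p = 0.00315). Slpi, an inhibitor of leukocyte proteases, had 75.1, 148, 499 and 120 CPM against 15.2, 37.7, 17.1 and 22.9 (2.81 ± 0.36, adjusted p = 0.00197), with its highest value in F592A 1. Runx3, Pth1r, Frzb, Ucma, Col27a1 and Col11a1 were also higher.

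Several gene groups that separated the selected spots from the rest of the section did not pass against tendon-rich spots. None of 19 crosslinking genes, none of 13 fibrillar and small collagens and 2 of 24 glycosaminoglycan genes (Slc26a2 and Chsy1) were called. A p above the threshold does not show that these levels were alike. Comp had 1901, 1590, 635 and 537 CPM in the selected spots and 895, 1084, 646 and 876 in the tendon-rich spots (0.24 ± 0.23, adjusted p = 0.758).

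Cilp, a matrix protein of cartilage and tendon, had 930, 503, 81.5 and 85.2 CPM against 1687, 1239, 1041 and 577 (adjusted p = 0.0131), lower in 4 of 4 sections. Of 11 tendon sheath and progenitor genes 6 were lower (Dpt, Clec3b, Tppp3, Pi16, Igfbp6 and Cd34), and so were 6 of 11 fast muscle genes. Keratins ran the other way, with 4 of 9 epidermal genes higher, and epidermal genes took 0.0165 to 0.0653% of UMIs in the selected spots and 0.0106 to 0.0303% in the tendon-rich spots. The part of skin RNA in this comparison was not tested. The count fell to 27 without the section block and to 53 without F592A 1, where 9 and 11 of the 24 named genes were still called. Keeping spots of at least 10000 UMIs left F592A 1 with too few spots, and the other 3 sections gave 44 genes and 10 of the 24.

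The genotype comparison within the selected spots asked how cartilage matrix-rich spots differed between the TrkA groups. By the rule of size, the genes lower in F592A were the matrix genes Chad, Cilp2, Kera and Fbln7, the sulfotransferase Chst5, the secreted chaperone Clu, the membrane protein Adam23 and the muscle genes Sln, Tnnt1 and Myh7. Higher were Ptgs2, Rgs4, Myc, Glipr1, Chl1, Ier3, Moxd1, Ndnf, Ddit4 and Inhba. In edgeR's test 186 of 10104 genes (1.84%) passed, 71 higher (0.703%) and 115 lower (1.14%) in F592A. The WT and F592A sections did not overlap for 44.6% of all genes tested.

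Chad, chondroadherin, had 218 and 223 CPM in the WT sections and 2.44 and 6.20 in the F592A sections. The WT values lay together, far above both F592A values (log2 fold change -5.38 ± 0.32, adjusted p = 1.20e-06). Cilp2 had 351, 417, 12.2 and 8.52 CPM (-5.32 ± 0.29, adjusted p = 9.63e-07). The gap was smaller in the tendon-rich spots, where Chad had 101, 134, 47.4 and 75.9 plain CPM and Cilp2 198, 280, 142 and 107. The selected spots of the groups also differed in their share of the 6 tendon genes. Its median was 0.686 and 0.635% in WT and 0.295 and 0.288% in F592A, and its part in these differences was not tested. Kera had 188, 513, 14.7 and 15.5 CPM (-4.53 ± 0.48, adjusted p = 0.000406), and Chst5, a sulfotransferase of the sugar chains that keratocan carries, had 52.5, 52.0, 4.89 and 0 CPM. Clu, clusterin, had 392, 270, 24.4 and 41.1 CPM (-3.21 ± 0.28, adjusted p = 6.13e-05).

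**Figure D5:**
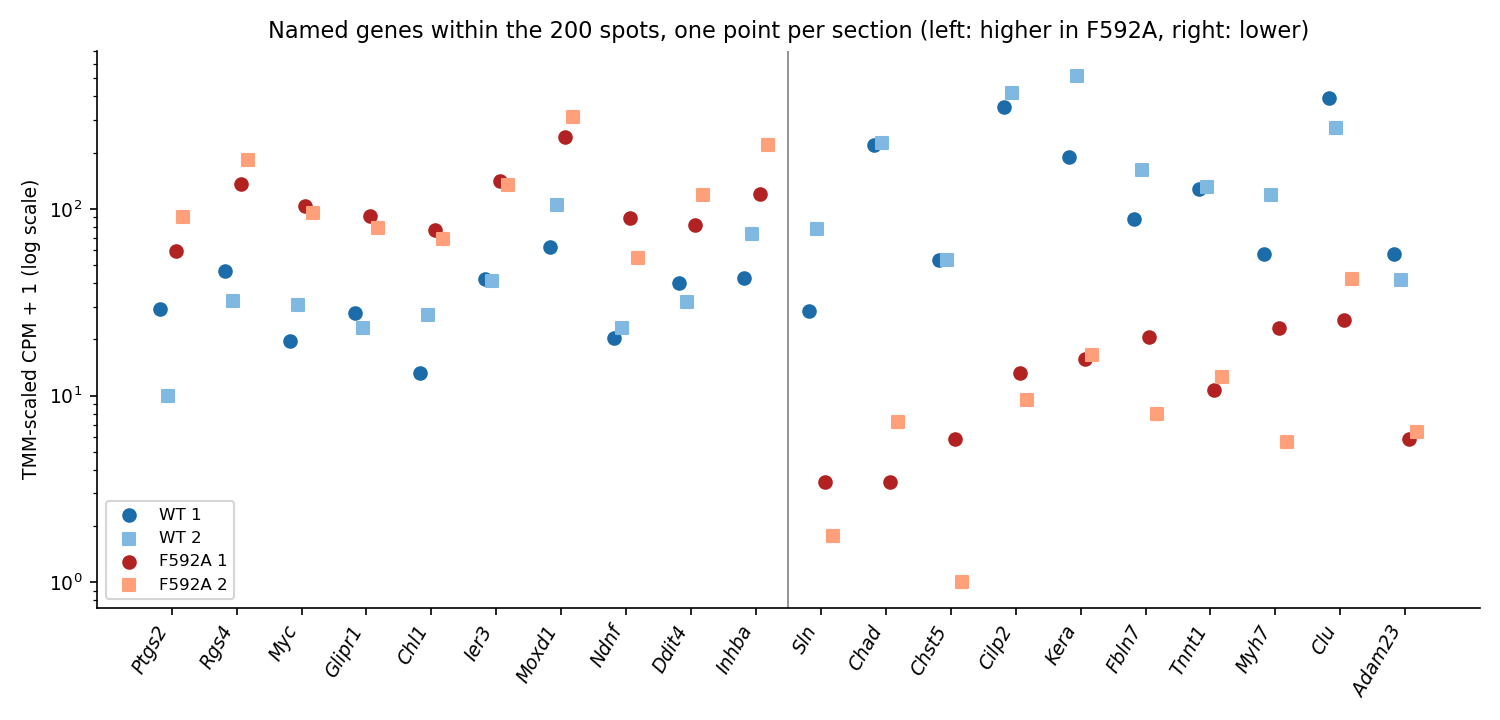
TMM-scaled CPM plus 1 on a log axis (y) within the selected spots for the 20 genes named in the genotype comparison (x), 1 point per section. The 10 genes to the right of the line are lower in both F592A sections, with Chad at 218 and 223 in WT and 2.44 and 6.20 in F592A, and the 10 to the left are higher in both.

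Tenocyte genes were lower in F592A in 5 of 8 tested, and none was higher. Tnmd had 1867, 2057, 262 and 329 CPM (-2.72 ± 0.23, adjusted p = 6.13e-05) and Mkx, a tendon transcription factor, 57.6, 69.1, 22.0 and 6.20 (-2.59 ± 0.41, adjusted p = 0.00479). Fmod and Thbs4 were lower too, and Scx did not pass (248, 186, 137 and 153 CPM, adjusted p = 0.231). Of 12 small leucine-rich proteoglycans 4 were lower (Chad, Kera, Fmod and Ogn).

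The further cartilage matrix genes were divided. Lower in F592A were 5 of 11 (Cilp2, Chad, Cilp, Comp and Prg4), with Comp at 1895, 1589, 628 and 532 CPM (-1.59 ± 0.22, adjusted p = 0.00230). Higher were 2, Col9a3 at 3.60, 11.4, 61.1 and 55.8 CPM (2.73 ± 0.37, adjusted p = 0.00194) and Col27a1 at 56.1, 72.1, 110 and 129 (0.90 ± 0.21, adjusted p = 0.0448). Sox9 had 122, 248, 379 and 446 CPM, with no overlap between groups, and missed the threshold (1.14 ± 0.27, adjusted p = 0.0538). Col11a1 had 1865, 1706, 1520 and 1430 CPM (-0.28 ± 0.21, adjusted p = 0.627), and none of the 13 fibrillar and small collagens passed.

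Among the genes that were higher, Ptgs2, the inducible cyclooxygenase, had 28.1, 9.01, 58.7 and 89.9 CPM (2.25 ± 0.41, adjusted p = 0.0118). Myc had 18.7, 29.7, 103 and 93.8 (1.94 ± 0.26, adjusted p = 0.00160), Ier3, an early response gene, 41.0, 39.9, 139 and 133 (1.75 ± 0.20, adjusted p = 0.000653), and Inhba, a chain of activin A, 41.7, 72.1, 120 and 219 (1.59 ± 0.29, adjusted p = 0.0113). The calls of Ptgs2 and Inhba were both lost without F592A 2, without the 16-spot patch of that section, with 100 spots and with a score without Matn4, and that of Ptgs2 also with 50 spots per section and without the deepest spots. Of 16 immediate early genes 4 were higher (Ier3, Ccn1, Nr4a1 and Jun) and none lower. Of 21 hypoxia and glycolysis genes 3 were higher (Ankrd37, Eno1 and Vegfa), and of 24 glycosaminoglycan genes 3 were higher, the sulfate transporter Slc26a2, the hyaluronan synthase Has2 and Ugdh.

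Muscle RNA moved with this contrast. Of 8 slow muscle genes 6 were lower in F592A, and the list took 0.0893 and 0.101% of UMIs in the selected spots of WT 1 and WT 2 and 0.0497 and 0.0437% in those of F592A 1 and F592A 2. In the other spots it took 0.305, 0.210, 0.0964 and 0.100%, so both WT sections were above both F592A sections outside the selection too, and no slow muscle marker was at 0. Sln, sarcolipin of the muscle membrane, had 27.4, 76.6, 2.44 and 0.775 CPM, and the list of regenerating muscle genes it belongs to took 0.0215, 0.0107, 0.00205 and 0.00123% of UMIs. Of 11 fast muscle genes none passed. The part of muscle RNA in the genotype result was not tested.

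The count of 186 depended on a few spots. It was 60 without F592A 2, 297 without WT 1, 55 without the 16-spot patch of F592A 2 and 58 without the deepest spot of each section, and of the 20 genes shown in the plot of named genes 14, 20, 13 and 14 were still called. Rgs4, Myc, Ier3, Moxd1, Chad, Chst5, Cilp2, Kera, Fbln7, Tnnt1, Clu and Adam23 passed in each of these 4 settings, in the same direction. Some of these calls were lost elsewhere: Rgs4 and Moxd1 did not pass with a score without Matn4, and Chst5 did not pass in DESeq2.

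By leading gene, WT 2 stood apart from the other 3 sections: Acan led in 56.7% of the selected spots of WT 1, 26.5% of those of WT 2, 77.8% in F592A 1 and 80% in F592A 2. Within the spots led by Acan alone, Chad had 120, 119, 2.69 and 4.87 CPM, Cilp2 had 243, 304, 10.8 and 8.93, and Tnmd had 1659, 2265, 250 and 338. The groups stayed apart for all 3 genes. Col9a3 had 4.86, 17.9, 67.2 and 57.6 CPM and Sox9 had 158, 313, 395 and 448 in these spots. The 14-spot patch of WT 2 described above, with 24.0 CPM of Chad and 53.9 of Col9a3, was the WT patch of at least 6 spots with the lowest Chad and the highest Col9a3.

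Over whole sections, with no choice of spots, none of the 9 scored genes passed between genotypes. Here 13 of 16347 genes (0.0795%) were called by edgeR, 5 higher (0.0306%) and 8 lower (0.0489%) in F592A, and the groups did not overlap for 44.1% of all genes tested. Acan had 197, 282, 277 and 262 CPM (log2 fold change 0.17 ± 0.19, adjusted p = 0.779), with overlapping groups. Matn4 had 125, 318, 115 and 99.8 CPM (-1.05 ± 0.41, adjusted p = 0.419), set apart mainly by WT 2. Col11a2 had 49.0, 117, 24.2 and 20.4 CPM (-1.89 ± 0.40, adjusted p = 0.212) and Col2a1 18.9, 43.4, 13.8 and 11.0 (-1.32 ± 0.38, adjusted p = 0.307), both with the WT sections above the F592A sections. Sox9 had 95.6, 139, 201 and 195 CPM (0.76 ± 0.19, adjusted p = 0.254). Of the genes that differed within the selected spots, Chad had 49.8, 84.3, 20.2 and 19.0 CPM over whole sections (-1.77 ± 0.25, adjusted p = 0.139) and Col9a3 had 2.14, 3.91, 6.50 and 5.08 (0.95 ± 0.33, adjusted p = 0.369). With 2 sections per group these fits leave wide errors, and a p above the threshold does not show equal levels.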

How the data were processed

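Visium libraries of 4 sections were analysed from the deposited files, which give the raw count of UMIs for each of 32285 genes in each spot, written by Space Ranger 1.3.0 per the file headers. The submitters' processing notes name the genome build mm10 and Seurat 3. The counts carry no normalization, cover tissue spots alone, and were used as deposited.

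Spots with at least 1000 UMIs were scored, and the 200 highest were taken. The selected spots, the gene lists and the comparisons were chosen with earlier results of these data known. Spots are not replicates, so counts were summed per section (2 per group) over the selected, other or tendon-rich spots. They were compared by edgeR 4.0.16 (R 4.3.3, quasi-likelihood F test, TMM scaling, filterByExpr), with Benjamini-Hochberg adjustment over all genes tested, a threshold of 0.05, and the section as a block where sums of the same section were compared. The 9 scored genes, and against tendon-rich spots the 6 tendon genes, were left out of the calls. SEs were derived from the fold change and the F statistic. Plain CPM uses the summed UMIs with no TMM factor. Against other and tendon-rich spots, the rule named, in each direction, the up to 12 called genes of largest fold change whose mean log2 CPM reached 5 and whose direction was the same in every section. Between genotypes it was up to 10 with groups that did not overlap, and each list gave up to 4 by smallest p. A fixed set such as Sox9, Comp and Tnmd was named in any case, and further genes called in a list are named by list. Sums of 390570 to 3536647 UMIs per section limit precision for genes under a few CPM.

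The fits were tested on simulated data. As alternatives, the filter was dropped, scaling was by RLE and the test by DESeq2 1.42.0. Others were other minimum depths and set sizes, scores without a gene, 50 spots per section, each section left out and a replicate block. Chosen after seeing the data were members of at least 10000 UMIs or with 10 scored UMIs, the sets without the 16-spot patch or the deepest spots, the crossed pairing, and the test of whether the difference between selected and other spots itself differed by genotype. Gene positions are from RefSeq on GRCm38, the same build as mm10. Images were not used. Results for some genes picked by these rules are not reported here.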

Additional observations from a re-analysis of the deposited data

Results flagged for a closer look

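The difference between the cartilage matrix-rich spots and the other spots of the same section itself differed by genotype for 20 of the named genes. It was tested in edgeR as the group by spot-set interaction with the section as a block. The named genes included those of the genotype comparison, picked for a gap between the groups in the same selected spots. The interaction uses that gap again, so the count of 20 was favoured by the choice of genes. This test was added after seeing the data and called 167 of 15325 genes. Its prior degrees of freedom came out infinite, with 2 residual degrees per gene, so all genes shared 1 trend of spread, which gives p-values too small for genes that vary more. Values are the F592A difference minus the WT difference on the log2 scale.

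The most negative values among the named genes were -3.95 ± 0.38 for Chad, -3.80 ± 0.33 for Cilp2, -3.41 ± 0.71 for Chst5, -2.64 ± 0.32 for Kera, -2.61 ± 0.34 for Fbln7 and -2.10 ± 0.26 for Cilp. Chad was 2.35 and 1.84 higher in the selected spots of WT 1 and WT 2, and 2.61 and 1.42 lower in those of F592A 1 and F592A 2 (log2 values of 2.35, 1.84, -2.61 and -1.42), so the sections of the 2 groups moved opposite ways. Cilp2, Chst5, Kera and Fbln7 did the same. Cilp lay near 0 in both WT sections (0.15 and 0.07) and was lower in the selected spots of both F592A sections (-2.40 and -1.68).

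The values were -1.93 for Prg4, -1.88 for Clu, -1.41 for Tnmd, -1.39 for Tnnt1 and -1.02 for Comp. The groups moved opposite ways in Prg4 too, with log2 values of 1.51 and 0.90 in WT and -0.23 and -1.15 in F592A. Comp was higher in the selected spots of every section, by 2.26 and 1.56 in WT and 0.91 and 0.88 in F592A, so its groups differed in size and not in direction. Tnnt1, a slow muscle gene, was lower in the selected spots of every section.

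Type IX collagen genes had positive values, 2.15 ± 0.58 for Col9a2 and 2.08 ± 0.44 for Col9a3, which rest on the low counts given above. Slpi (1.05) and Aqp5 (0.89) were higher in the selected spots of every section and more so in F592A. Rgs4 (1.5), Ndnf (1.28), Glipr1 (1.26), Ddit4 (1.04) and Ier3 (0.98) were higher in the selected spots of both F592A sections, and Ier3 lay within 0.1 of 0 in both WT sections.

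The interaction for Sox9 did not pass. The number of genes called was 106 without the 16-spot patch of F592A 2, 67 without the deepest spot of each section and 57 to 246 with a section left out.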

How the results depend on the processing

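No called value of a named gene changed sign under any alternative run. Over all values of single genes under the alternatives, 1626 kept their side of the threshold, 173 lost it and 17 gained it, and 16 values that had not passed changed sign without passing. Against other spots, 3019 genes were called in the report, 1889 without the section as replicate block, 1705 with 100 spots, 1625 with members of at least 10000 UMIs and 2023 to 2722 with a section left out. Against tendon-rich spots, 193 became 633 without a filter, 27 without the replicate block, 67 with 100 spots, 588 with a score without Matn4, 44 with members of at least 10000 UMIs, 45 with members of at least 10 scored UMIs and 53 to 208 with a section left out.

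Between genotypes in the selected spots, 186 became 105 in DESeq2, 503 without a filter, 38 with 100 spots, 120 with 50 spots per section, 58 with a score without Matn4, 55 without the 16-spot patch of F592A 2, 58 without the deepest spots, 323 with at least 10 scored UMIs and 60 to 297 with a section left out. Over whole sections, 13 became 423 in DESeq2, 5 with RLE scaling, 545 without a filter, 4 with at least 2000 UMIs per spot and 0 to 407 with a section left out. The count was 0 in edgeR without F592A 1 or F592A 2, with 1448 and 842 genes at an unadjusted p under 0.05. A left-out section leaves 1 group with 1 section, assumed to vary like the other. The interaction count of 167 became 106 without the patch, 67 without the deepest spots and 57 to 246 with a section left out. The settings with 100 spots, with members of at least 10000 UMIs and with at least 10 scored UMIs left F592A 1 under 10 spots and ran on the other 3 sections, so 2 choices changed at once there. The cause of these moves was not tested.

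The share of selected spots was 7.75% in WT 2 and 0.473% in F592A 2 with a score without Acan, and 3.45% in WT 2, 1.24% in F592A 1 and 2.04% in F592A 2 with a score without Matn4.

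The replicate numbers of WT and F592A are not shown to pair the sections: deviations of same-numbered sections correlated at 0.0814 in the selected spots and -0.136 in whole sections. With the replicate number as a block, 277 genes were called in the selected spots and 7 in whole sections. With the crossed pairing, whole sections gave 181.

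Limits: each group has 2 sections, F592A 1 gave 18 spots with 52.7% of their UMIs from 1 of them, 37 scores rest on fewer than 10 scored UMIs, and depth differs between selected and other spots. Genes near 0 CPM in a group have fold changes that depend on the prior count.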
